A study of Mus musculus with 15 samples.

Results

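Long non-coding RNAs that stay in the nucleus or that carry small RNAs in their introns were followed in mouse pre-B cells with and without an edit in Msl2, the gene of a ubiquitin ligase in the MSL histone acetylation complex. The 10 genes were taken by symbol: the nuclear RNAs Malat1, Neat1 and Kcnq1ot1, the small nucleolar RNA (snoRNA) hosts Gas5, Snhg1, Snhg3, Snhg5, Snhg6 and Snhg12, and the microRNA host Mir17hg. All 10 had a row among the 55335 gene identifiers of the count files, and 9 of them, all but Snhg3, were among the 13077 genes with enough reads to be tested. Per the labels, the cells descend from 1 bone marrow cell that lacks SLP65 (an adaptor of the pre-B cell receptor, encoded by Blnk), are grown with interleukin 7, and gave rise to the knockout line after electroporation of an Msl2 guide RNA. The 3 libraries titled MSL2KO (knockout) and the 3 titled MSL2WT (wild type) therefore share the SLP65 deficiency, the medium and the lack of treatment. The knockout is 1 line, and the design text compares it with the wild-type clone. Other differences between these lines cannot be told apart from an effect of Msl2 loss. Ribosomal RNA was removed from total RNA before sequencing, so that transcripts could be read whether or not they carry a poly(A) tail. The genotype tags name the opposite genotype to the title in all 6 RNA libraries. Groups follow the titles here, and every direction depends on them.

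In mammalian cells MALAT1 concentrates in nuclear speckles, bodies rich in splicing factors, and NEAT1 is the scaffold on which paraspeckles assemble. Kcnq1ot1 is an unspliced antisense transcript of the paternal allele that silences neighbouring imprinted genes in cis. In a snoRNA host gene the introns are processed into snoRNAs, which guide the modification of ribosomal RNA, while the spliced host transcript is often short-lived and degraded by nonsense-mediated decay. Mir17hg is the primary transcript of the miR-17-92 cluster, whose loss in mice raises the pro-apoptotic protein BIM and stops B cell development at the pro-B to pre-B transition.

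The miR-17-92 arms below are shown because their shared seeds define which members of the cluster act alike on targets. Each is the mature sequence from RefSeq (GRCm38.p6, chromosome 14, plus strand), written 5′ to 3′, with the seed, bases 2 to 8, in capitals.
mmu-miR-17-5p: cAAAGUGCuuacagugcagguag
mmu-miR-20a-5p: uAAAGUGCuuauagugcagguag
mmu-miR-18a-5p: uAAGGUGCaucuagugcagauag
mmu-miR-19a-3p: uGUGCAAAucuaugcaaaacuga
mmu-miR-19b-3p: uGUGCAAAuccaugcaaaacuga
mmu-miR-92a-3p: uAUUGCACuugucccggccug
The 6 arms carry 4 seeds, one shared by miR-17-5p and miR-20a-5p and another by miR-19a-3p and miR-19b-3p. Their 6 hairpins lie between positions 115043671 and 115044506, a stretch of 836 bp that the RefSeq span of Mir17hg, from 115044390, covers only in part.

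The libraries held between 14092278 and 20803227 counted reads. Defining pre-B transcripts were present, with 13 of 14 markers tested and a summed level of 3220 to 3260 CPM in knockout libraries and 3000 to 3360 CPM in wild-type libraries (CPM, read counts per TMM-scaled library size). T and NK cell markers summed to 5.28 to 9.95 CPM in knockout and 8.69 to 13.6 CPM in wild-type libraries, with 4 of 16 at 0 throughout, and myeloid markers to 3.38 to 5.47 CPM in knockout and 3.25 to 5.75 CPM in wild-type libraries, with 5 of 13 at 0. Erythroid and megakaryocyte markers summed to 135 to 193 CPM in knockout and 150 to 174 CPM in wild-type libraries, nearly all from the globin row Hbb-bt, and stromal and endothelial markers to 115 to 131 CPM in knockout and 103 to 123 CPM in wild-type libraries, nearly all from Pecam1, while 3 of 12 and 5 of 10 of these markers were at 0. Among the markers, edgeR called the pre-B gene Il7r (28.1 ± 11.3 CPM in knockout, 82 ± 12.5 CPM in wild type), the T cell gene Lat (1.86 ± 0.745 CPM in knockout, 5.98 ± 1.8 CPM in wild type) and the erythroid gene Gata1 (0.235 ± 0.147 CPM in knockout, 1.85 ± 0.31 CPM in wild type), all lower in the knockout. Over all tested genes edgeR called 4.59%. Gata1 was near or under the floor of 3 reads in the knockout, at 0.311, 0.329 and 0.066 CPM in libraries 1, 2 and 3. That floor was 0.186, 0.141 and 0.198 CPM there. Lat missed the threshold with wild-type replicate 1 left out (edgeR adjusted p = 0.0619), without both libraries numbered 2 (0.0607) and without both numbered 3 (0.0662). The 13 tested pre-B markers did not move together, with log2 fold changes from -1.84 to 1.49 and 6 of them above 0. Of these markers, 4 had an edgeR unadjusted p under 0.05, beside 15.4% of all tested genes, and limma-voom called 2, beside 4.74%. In bulk RNA, fewer cells of a type and less RNA per cell cannot be told apart. The part of these markers in the results below was not tested. Msl2 RNA was not lost, at 105, 103 and 121 CPM in knockout libraries 1, 2 and 3 and 97.2, 99.3 and 92.3 CPM in wild-type libraries 1, 2 and 3 (adjusted p = 0.302 in edgeR's quasi-likelihood test with Benjamini-Hochberg adjustment). Blnk, the gene of SLP65, was at 112 ± 4.07 CPM in knockout and 98.3 ± 19 CPM in wild-type libraries. Neither gene-level count can show a small edit, so the labels were not checked by them. A pattern of nearly silent genes was counted for the libraries numbered 2 only. The same count was not made for numbers 1 and 3, so it cannot show which libraries stood apart. Of 13 genes with at most 1 read in knockout replicates 1 and 3 and at least 20 reads in wild-type replicates 1 and 3, 10 had 5 or more reads in knockout replicate 2. Of 6 genes with the reverse pattern, 5 had 5 or more reads in wild-type replicate 2. Whether the replicates came from separate cultures is not stated, so the p-values may reflect technical spread alone.

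None of the 9 tested lncRNAs passed the test between knockout and wild type, with 0 called by edgeR at an adjusted p under 0.05 over all tested genes, 0 by DESeq2 and 0 by limma-voom. The background of calls among all 13077 genes was 4.59% in edgeR (1.8% higher in the knockout, 2.79% lower), 6.06% in DESeq2 and 4.74% in limma-voom. Before adjustment, 2 of the 9 lncRNAs had an edgeR p under 0.05, Snhg5 and Snhg1, against 15.4% of all genes. The groups did not overlap for 1 of the 9, Snhg1, which was lower in the knockout. Over all genes 20.9% did not overlap, 9.67% with the knockout higher and 11.2% with it lower. The log2 fold changes, knockout over wild type, ran from -0.17 for Snhg1 to 0.39 for Neat1, with a median of 0.08 over the 9 beside a median of 0.00395 over all tested genes.

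**Figure D1:**
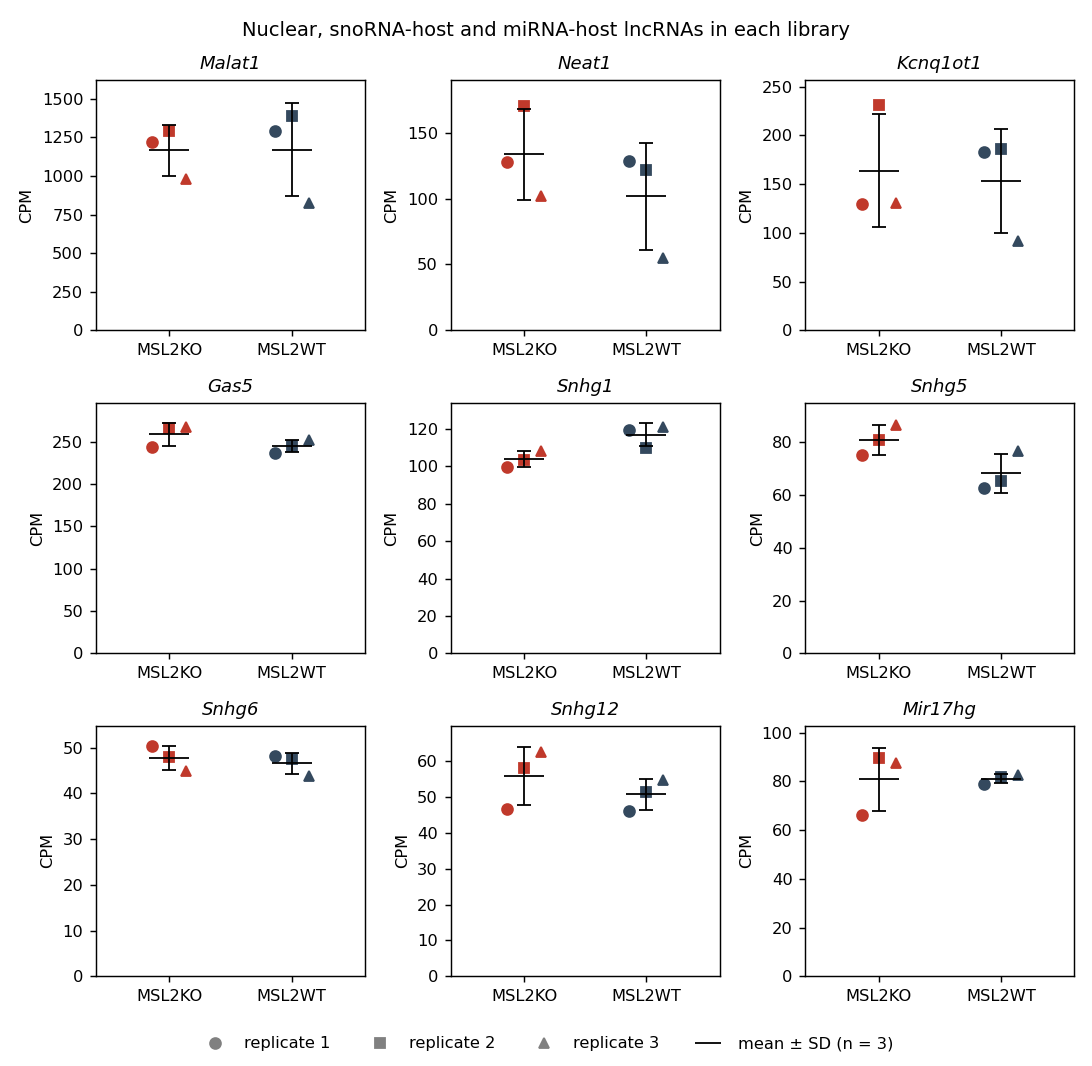
TMM-scaled CPM of the 9 tested lncRNAs in each library, knockout (MSL2KO, red) left and wild type (MSL2WT, dark blue) right, with libraries 1, 2 and 3 as circle, square and triangle and bars for the mean ± SD (n = 3). Replicate 3 is low for Malat1 and Neat1 in both groups and for Kcnq1ot1 in the wild type, and the groups overlap for 8 of the 9 genes.

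Malat1 (ENSMUSG00000092341.3, chromosome 19, 5795690 to 5802672, GRCm38.p6, minus strand) took the most reads of the 10, 0.079% to 0.141% of all reads. It was at 1223, 1295 and 979 CPM in knockout libraries 1, 2 and 3 and at 1294, 1390 and 828 CPM in wild-type libraries 1, 2 and 3. The third library was the lowest in each group, and the knockout range lay inside the wild-type range. The means were 1166 ± 165 CPM in knockout and 1171 ± 301 CPM in wild-type libraries (SD, n = 3 each). The log2 fold change was -0.01 ± 0.18 (SE; edgeR adjusted p = 0.995), and its sign turned under 7 of 15 alternative settings. The 95% interval of the fold ran from 0.758 to 1.31, so a change within that range, in either direction, is compatible with these libraries.

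Neat1 (ENSMUSG00000092274.3, chromosome 19, 5824708 to 5845480) lies 22035 bp from Malat1. It was at 128, 170 and 102 CPM in knockout libraries 1, 2 and 3 and at 128, 122 and 55.1 CPM in wild-type libraries 1, 2 and 3. Wild-type replicate 3 was by far the lowest library, and knockout replicate 2 the highest. The means were 133 ± 34.4 CPM in knockout and 102 ± 40.5 CPM in wild-type libraries and the log2 fold change 0.39 ± 0.28 (SE; edgeR adjusted p = 0.597; 95% interval of the fold from 0.859 to 2.01). Much of that difference rested on 1 library at a time, since the log2 fold change was 0.10 (adjusted p = 0.844 in edgeR) without wild-type replicate 3, 0.19 without knockout replicate 2 and 0.59 without wild-type replicate 1. Without a filter on low counts Neat1 was called, at nearly the same log2 fold change (0.39, adjusted p = 0.000944 in edgeR, against 0.121 to 0.892 under the other 14 alternatives). In that fit the spread of each gene was replaced by a common trend, and the SE of Neat1 was 0.0918.

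Kcnq1ot1 (ENSMUSG00000101609.2, chromosome 7, 143213111 to 143296547, minus strand) was at 130, 231 and 131 CPM in knockout libraries 1, 2 and 3 and at 183, 186 and 91.9 CPM in wild-type libraries 1, 2 and 3. Knockout replicate 2 was the highest library and wild-type replicate 3 the lowest, and the ranges overlapped. The means were 164 ± 58.1 CPM in knockout and 153 ± 53.3 CPM in wild-type libraries (log2 fold change 0.10 ± 0.27 SE, edgeR adjusted p = 0.935). The direction turned without knockout replicate 2 (-0.23), without wild-type replicate 3 (-0.16), without both libraries numbered 2 (-0.07) and without both numbered 3 (-0.02).

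Malat1, Neat1 and Kcnq1ot1 are known mainly as unspliced RNAs, and their levels per length were taken over RefSeq spans of 6983, 20773 and 83437 bp. Counts per gene do not show where in a span the reads lie, so transcript forms of different length cannot be told apart. On the scale of CPM per kb, Malat1 had 140 to 185 in knockout and 119 to 199 in wild-type libraries, and Neat1 had 4.91 to 8.19 in knockout and 2.65 to 6.18 in wild-type libraries. Kcnq1ot1 had 1.56 to 2.77 CPM per kb in knockout and 1.1 to 2.22 in wild-type libraries. As a ratio of reads, Neat1 amounted to 10.5%, 13.1% and 10.4% of Malat1 in knockout libraries 1, 2 and 3 and to 9.92%, 8.75% and 6.66% in wild-type libraries 1, 2 and 3. Kcnq1ot1 amounted to 10.6%, 17.8% and 13.4% of Malat1 in knockout libraries 1, 2 and 3 and to 14.1%, 13.3% and 11.1% in wild-type libraries 1, 2 and 3. The groups did not overlap in the Neat1 ratio and overlapped in the Kcnq1ot1 ratio, beside 20.9% of tested genes whose levels did not overlap. The share of genes whose ratio to Malat1 did not overlap was not computed. Both ratios were looked at after the values were seen and were not tested.

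The same nuclear RNAs differed far more between libraries of 1 group than most genes did. The pooled within-group SD of log2 CPM was 0.32 for Malat1, 0.55 for Neat1 and 0.53 for Kcnq1ot1, beside a median of 0.11 over the 7518 tested genes whose mean log2 CPM was 4 or more. Between 97.6% and 99.5% of those genes had a smaller SD. The tested snoRNA hosts had SDs from 0.06 for Gas5 to 0.18 for Snhg12, and Mir17hg one of 0.17. Replicate 3 stood at 77.8% of the mean of replicates 1 and 2 for Malat1 in knockout and 61.7% in wild-type libraries, at 68.5% in knockout and 44.1% in wild-type libraries for Neat1, and at 72.4% in knockout and 49.9% in wild-type libraries for Kcnq1ot1. In the knockout, Kcnq1ot1 was as low in replicate 1 (130 CPM) as in replicate 3 (131 CPM), beside 231 CPM in replicate 2. Replicate 3 of Xist, the RNA of the inactive X chromosome and itself retained in the nucleus, stood at 64.6% in knockout and 45.4% in wild-type libraries. Other nuclear or regulatory RNAs varied. For Firre replicate 3 was also the lowest library of each group, at 82.9% in knockout and 78.8% in wild-type libraries. Dleu2 stood at 104% in knockout and 81.3% in wild-type libraries, with replicate 3 the lowest in the wild type alone. Rn7sk stood at 94.8% in knockout and 113% in wild-type libraries, with replicate 3 the lowest in neither group. Gas5 stood at 105% in both groups.

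**Figure D2:**
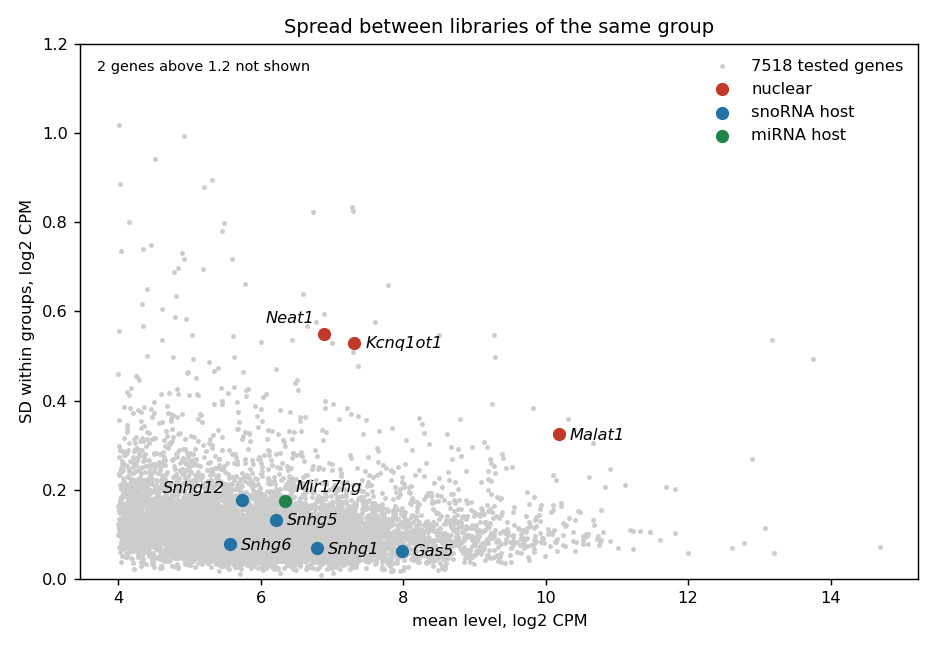
Pooled SD of log2 CPM within the knockout and wild-type groups (vertical) against mean log2 CPM (horizontal) for 7518 tested genes (grey), with 2 genes above the axis limit left out. Neat1, Kcnq1ot1 and Malat1 (red) lie at 0.55, 0.53 and 0.32, above nearly all of the 7518 genes, while the snoRNA hosts (blue) and Mir17hg (green) lie at 0.18 or below.

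Wild-type replicate 3 stood apart by gene length, and knockout replicate 3 did not for the longest genes. Relative to the group mean, the 1805 genes with the shortest RefSeq spans (median 6102 bp) had a median log2 level of 0.026 in knockout replicate 3 and 0.093 in wild-type replicate 3, and the 1805 genes with the longest spans (median 89638 bp) had one of -0.002 in knockout replicate 3 and -0.039 in wild-type replicate 3. The other libraries ran from -0.055 to 0.0012 for the shortest and from -0.017 to 0.025 for the longest genes. The 1804 genes next to the shortest (median 16883 bp) had a median of 0.033 in knockout replicate 3 and 0.066 in wild-type replicate 3. The span of Malat1 (6983 bp) is near the median of the shortest genes and that of Neat1 (20773 bp) near 16883 bp. Kcnq1ot1, at 83437 bp, is near the median of the longest genes. Mitochondrial transcripts took 1.78% of the reads in knockout replicate 3 and 1.44% in wild-type replicate 3, within a range of 1.4% to 1.78% over all libraries. The part of these measures in the levels of the nuclear RNAs was not tested. Among 7517 other genes at a mean log2 CPM of 4 or more, the 3 whose log2 CPM followed Malat1 most closely over the 6 libraries were Dhx57, Dock2 and Lnpep (Pearson r from 0.992 to 0.996, Spearman rho from 0.943 to 1, given as a description of 6 libraries that share scaling and depth).

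The snoRNA hosts were steadier. Gas5 (ENSMUSG00000053332.13, chromosome 1, 161034601 to 161038539, plus strand) had the most reads of them, at 243, 266 and 267 CPM in knockout libraries 1, 2 and 3 and at 237, 245 and 252 CPM in wild-type libraries 1, 2 and 3. Knockout libraries 2 and 3 lay above every wild-type library, while knockout replicate 1 fell inside the wild-type range. The log2 fold change was 0.08 ± 0.07 (SE, edgeR adjusted p = 0.712), and the 95% interval of the fold ran from 0.946 to 1.18. The genes most like Gas5 in their log2 CPM over the 6 libraries were Dxo, Usp16 and 1110038B12Rik (r from 0.97 to 0.976, rho from 0.943 to 1, as a description).

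Snhg5 (ENSMUSG00000097195.9, chromosome 9, 88521052 to 88522897, minus strand) was at 75.1, 80.6 and 86.6 CPM in knockout libraries 1, 2 and 3 and at 62.5, 65.1 and 76.6 CPM in wild-type libraries 1, 2 and 3. Knockout replicate 1 lay just under wild-type replicate 3, and the groups overlapped there alone. Its means of 80.8 ± 5.77 CPM in knockout and 68.1 ± 7.5 CPM in wild-type libraries gave a log2 fold change of 0.25 ± 0.09 (SE; unadjusted p = 0.0258, adjusted p = 0.225 in edgeR). With any 1 library left out, the edgeR adjusted p lay between 0.0623 and 0.543.

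Snhg1 (ENSMUSG00000108414.1, chromosome 19, 8723487 to 8726326, plus strand) was the only tested lncRNA of the 9 with full separation of the groups. It was at 99.5, 104 and 108 CPM in knockout libraries 1, 2 and 3 and at 119, 110 and 121 CPM in wild-type libraries 1, 2 and 3. The highest knockout library and the lowest wild-type library were 108 and 110 CPM. Means of 104 ± 4.21 CPM in knockout and 117 ± 6.18 CPM in wild-type libraries gave a log2 fold change of -0.17 ± 0.07 (SE, unadjusted p = 0.0415, adjusted p = 0.295 in edgeR).

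Snhg12 (ENSMUSG00000086290.9, chromosome 4, 132308678 to 132311024, plus strand) was at 46.8, 58 and 62.4 CPM in knockout libraries 1, 2 and 3 and at 46.1, 51.3 and 54.7 CPM in wild-type libraries 1, 2 and 3. The first library was the lowest in each group and the ranges overlapped (log2 fold change 0.14 ± 0.11 SE, edgeR adjusted p = 0.68). Snhg6 (ENSMUSG00000098234.7, chromosome 1, 9942025 to 9944118) was at 50.3, 48 and 44.9 CPM in knockout libraries 1, 2 and 3 and at 48.3, 47.5 and 43.9 CPM in wild-type libraries 1, 2 and 3. The ranges overlapped almost fully, with a log2 fold change of 0.04 ± 0.08 (SE, edgeR adjusted p = 0.909).

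Snhg3 (ENSMUSG00000085241.7, chromosome 4, 132351933 to 132353686, minus strand) was barely read. It had 3, 1 and 2 reads in knockout libraries 1, 2 and 3 and 0, 0 and 1 reads in wild-type libraries 1, 2 and 3, all at or under the floor of 3 reads, so no fold is given. Its promoter is the only one of 8 lncRNA promoters at hand that holds the letters AANATGGC, searched on both strands as a core of the YY1 motif, and is shown for that reason because YY1 is the factor named in the study's title. The window runs from 250 bases before to 50 after the RefSeq start (chr4:132353637-132353936, minus strand, GRCm38.p6), with the matching letters in capitals.
Snhg3: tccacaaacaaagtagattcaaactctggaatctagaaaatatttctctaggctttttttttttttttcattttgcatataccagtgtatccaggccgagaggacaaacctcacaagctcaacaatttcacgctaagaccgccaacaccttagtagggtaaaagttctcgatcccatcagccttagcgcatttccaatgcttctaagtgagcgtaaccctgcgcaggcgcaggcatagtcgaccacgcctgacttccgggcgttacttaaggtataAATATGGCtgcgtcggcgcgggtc
The letters are found in 6.05% of all 32851 promoter windows of that length, and a match describes the sequence and shows no binding. The E-box CACGTG was in none of the lncRNA windows and in 7.15% of all windows.

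Mir17hg (ENSMUSG00000089726.2, chromosome 14, 115044390 to 115046728, plus strand) was at 66, 89.4 and 87.3 CPM in knockout libraries 1, 2 and 3 and at 78.9, 81.7 and 82.7 CPM in wild-type libraries 1, 2 and 3. Knockout libraries lay on both sides of the narrow wild-type range. The means were 80.9 ± 12.9 CPM in knockout and 81.1 ± 1.94 CPM in wild-type libraries and the log2 fold change -0.0023 ± 0.11 (SE; edgeR adjusted p = 0.997), a sign that turned under 7 of 15 alternative settings, and the 95% interval of the fold ran from 0.844 to 1.18. Specc1, Pmm2 and Myo19 followed its log2 CPM most closely over the 6 libraries (r from 0.978 to 0.99, rho of 1, as a description).

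Host counts did not measure the small RNAs. RefSeq places 32 small RNA genes in or beside the lncRNA spans, of which 15 had a row of their own by symbol, and 14 of these had 0 reads in all 6 libraries. These included all 6 hairpins of the sequences printed above, Snora73a and Snora73b in Snhg3, and Snora16a, Snora44, Snora61 and Snord99 in Snhg12. The exception was Snord87 in Snhg6, with 21, 32 and 19 reads in knockout libraries 1, 2 and 3 and 23, 21 and 22 reads in wild-type libraries 1, 2 and 3, a log2 fold change of -0.06 ± 0.29 (SE, edgeR adjusted p = 0.965). How reads that overlap a host and its small RNA were assigned is not given in the sources used here.

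Genes next to the lncRNAs give the local background. Of the 7 protein-coding genes that overlap a member or lie within 5 kb of one, 6 were tested and 1 passed. Over all tested genes edgeR called 4.59%. Here and in the lists below, a single call describes that gene and not its list. The neighbour that passed was Trnau1ap, which encodes a protein that binds selenocysteine tRNA. It lies 738 bp beyond the 3′ end of Snhg12 on the opposite strand, so that the 2 genes converge. Trnau1ap was at 17.1, 19.2 and 18.9 CPM in knockout libraries 1, 2 and 3 and at 29.2, 27.5 and 31.6 CPM in wild-type libraries 1, 2 and 3. All knockout libraries were well below all wild-type libraries, and Trnau1ap fell by 0.68 ± 0.10 on the log2 scale (SE, edgeR adjusted p = 0.00346), with a log2 fold change from -0.73 to -0.62 without each library in turn. Snhg12 itself had the values above, and the difference between the neighbours' changes was not tested.

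**Figure D3:**
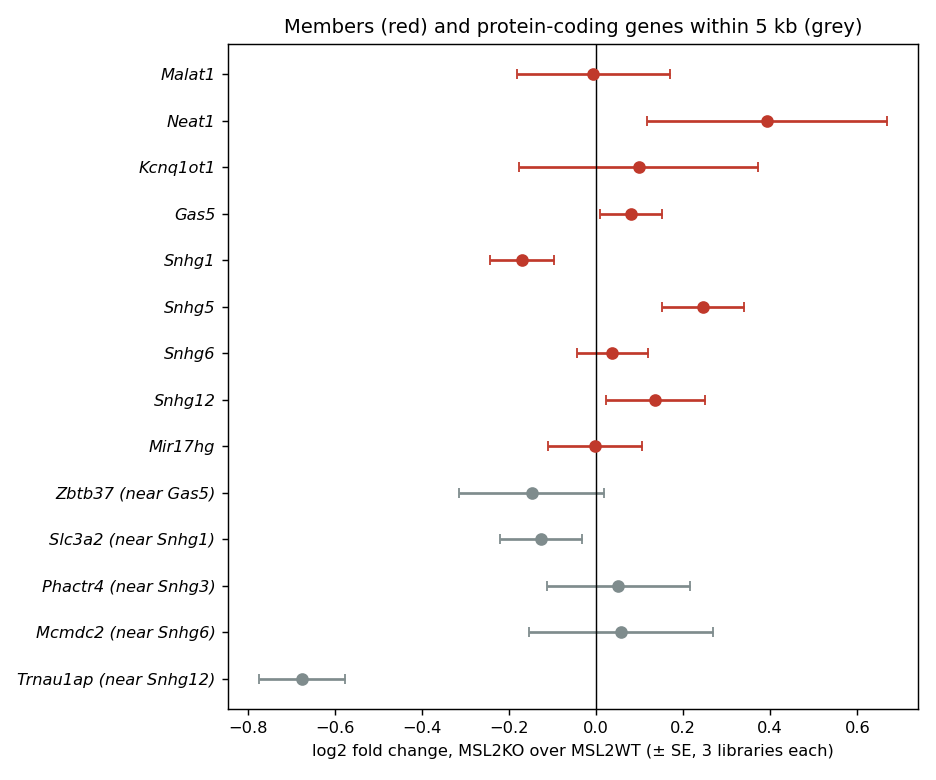
Log2 fold change, knockout over wild type, with SE bars (3 libraries each) for the 9 tested lncRNAs (red) and 5 protein-coding genes that overlap them or lie within 5 kb (grey). All the lncRNAs lie between -0.17 and 0.39, while Trnau1ap, beside Snhg12, lies at -0.68.

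Slc3a2, the heavy chain of amino acid transporters, starts 117 bp from Snhg1 on the opposite strand, head to head. It was at 198, 189 and 182 CPM in knockout libraries 1, 2 and 3 and at 236, 202 and 184 CPM in wild-type libraries 1, 2 and 3. The ranges overlapped (log2 fold change -0.13 ± 0.09 SE, edgeR adjusted p = 0.628), beside -0.17 for Snhg1. The window that this divergent pair shares is printed because it holds the letters GCGCNTGC, searched on both strands as a part of the NRF1 motif, at 2 places, shown in capitals (chr19:8723237-8723536, plus strand, GRCm38.p6).
Snhg1: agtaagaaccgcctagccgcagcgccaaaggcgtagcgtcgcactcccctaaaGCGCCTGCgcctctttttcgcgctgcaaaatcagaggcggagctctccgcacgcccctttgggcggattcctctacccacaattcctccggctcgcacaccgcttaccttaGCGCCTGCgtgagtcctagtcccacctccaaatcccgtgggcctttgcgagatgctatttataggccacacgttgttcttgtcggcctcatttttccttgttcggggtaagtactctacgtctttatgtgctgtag
Of all promoter windows 9.61% hold these letters, and among the 8 lncRNAs Snhg1 and Snhg3 do.

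Zbtb37, a zinc finger gene head to head with Gas5 and overlapping it by 264 bp, was at 21.9 ± 2.08 CPM in knockout and 24.3 ± 6.23 CPM in wild-type libraries (edgeR adjusted p = 0.786). Mcmdc2 overlaps Snhg6 by 1582 bp and was at 3.8 ± 0.488 CPM in knockout and 3.67 ± 0.39 CPM in wild-type libraries. Phactr4, near Snhg3, was at 6.46 ± 0.432 CPM in knockout and 6.25 ± 0.707 CPM in wild-type libraries. Whether the counting used strand is not stated, so reads of overlapping genes cannot be told apart.

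Kcnq1, the potassium channel gene that contains Kcnq1ot1, had 0 reads in every knockout library and 2, 0 and 0 reads in wild-type libraries 1, 2 and 3. How reads shared by the overlapping genes were assigned was not given. Of 15 listed genes of its imprinted domain and flanks, 8 were tested, 1 fell and none rose. Over all tested genes, edgeR called 2.79% lower in the knockout and 1.8% higher. Cdkn1c, Phlda2, Ascl2, Th and Ins2 were at 0 in all 6 libraries. The gene that fell was Osbpl5, an oxysterol-binding protein gene 392214 bp from Kcnq1ot1, at 6.9, 13.5 and 7.26 CPM in knockout libraries 1, 2 and 3 and at 26.2, 27.5 and 25.3 CPM in wild-type libraries 1, 2 and 3. Knockout replicate 2 was the highest of its group and still below every wild-type library, and the log2 fold change was -1.49 ± 0.22 (SE, edgeR adjusted p = 0.0034), or -1.86 without both libraries numbered 2. Over the 8 tested genes the median log2 fold change was -0.19, and 1 value was above 0.

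Among 10 tested Polycomb and G9a silencing genes, 1 rose and none fell, beside 1.8% called higher and 2.79% called lower over all tested genes. Ehmt2, the histone methyltransferase G9a, was at 340, 320 and 335 CPM in knockout libraries 1, 2 and 3 and at 242, 264 and 284 CPM in wild-type libraries 1, 2 and 3, a log2 fold change of 0.33 ± 0.08 (SE, edgeR adjusted p = 0.0441). That call was lost without any 1 library other than wild-type replicate 3 (adjusted p from 0.0952 to 0.177), without both libraries numbered 2 (0.25) and without both numbered 3 (0.0551).

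Of 5 tested genes listed for the regulation of Mir17hg or for paralogous clusters, 1 fell, beside 2.79% of all tested genes. MYC proteins are known to activate the miR-17-92 cluster in human cells. Mycn was at 89.4, 105 and 103 CPM in knockout libraries 1, 2 and 3 and at 168, 147 and 160 CPM in wild-type libraries 1, 2 and 3, with no overlap. It fell by 0.68 ± 0.09 on the log2 scale (SE, edgeR adjusted p = 0.00181), and by 0.77 without both libraries numbered 2. Myc was at 205 ± 34.3 CPM in knockout and 225 ± 13.3 CPM in wild-type libraries (edgeR adjusted p = 0.673).

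Of 20 tested genes listed as miR-17-92 targets, whose seed matches were not checked here, 1 fell and none rose. Over all tested genes, 2.79% were called lower and 1.8% higher. Among the 20, 10 values were above 0 and the median log2 fold change was 0.02. Bcl2l11, the gene of BIM, was at 36.8 ± 3.52 CPM in knockout and 36.9 ± 6.57 CPM in wild-type libraries (edgeR adjusted p = 0.996). The called gene was Map3k8, a kinase of inflammatory signalling, at 11.7, 12.8 and 7.46 CPM in knockout libraries 1, 2 and 3 and at 21, 22.5 and 20.9 CPM in wild-type libraries 1, 2 and 3 (2.0-fold lower, SE 0.17 on the log2 scale, edgeR adjusted p = 0.0076). Among 13 tested microRNA biogenesis genes, calls numbered 0 in edgeR, DESeq2 and limma-voom alike, beside 4.59%, 6.06% and 4.74% of all tested genes. Of the 13, 1 gene passed 0.05 before adjustment in edgeR, beside 15.4% of all tested genes.

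**Figure D4:**
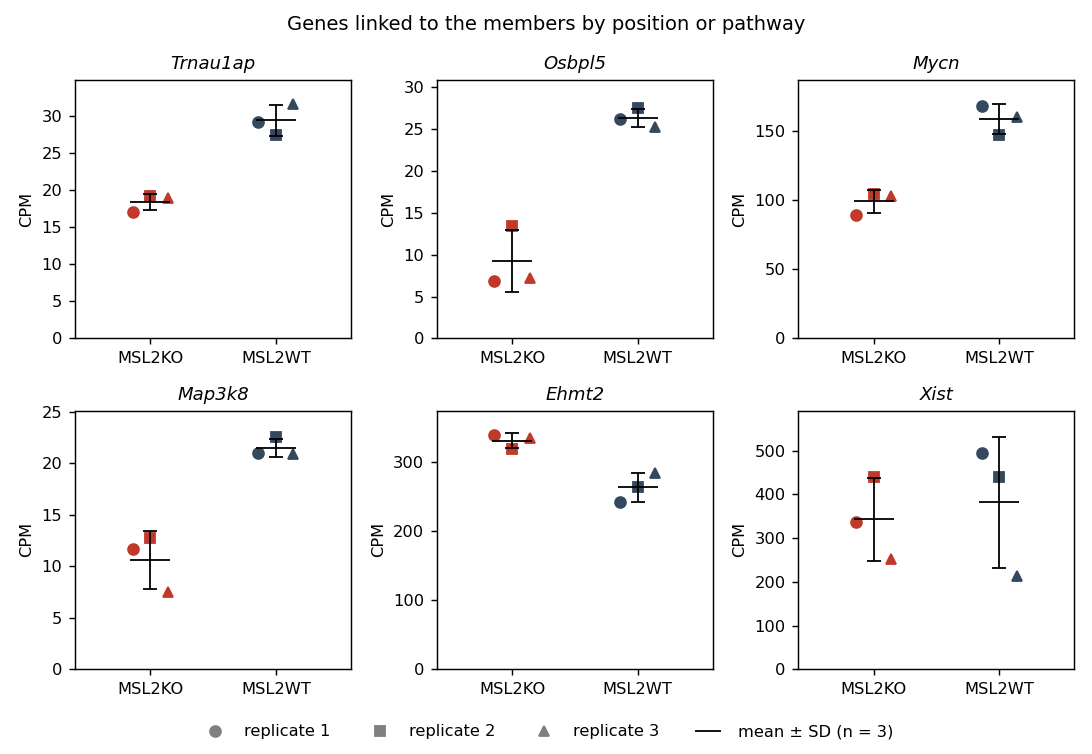
TMM-scaled CPM by library, knockout left and wild type right, with mean ± SD bars (n = 3), for genes linked to the lncRNAs by position or pathway. Trnau1ap, Osbpl5, Mycn and Map3k8 are lower and Ehmt2 higher in the knockout with no overlap, and Xist is lowest in replicate 3 of each group.

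Partner proteins of the lncRNAs gave no calls. EdgeR called 0 of 15 tested paraspeckle proteins (0 at an unadjusted p under 0.05), 0 of 18 nuclear speckle proteins (2), 0 of 12 genes of Malat1 and Neat1 tail processing (1), 0 of 10 snoRNP proteins (0) and 0 of 14 nonsense-mediated decay factors (0), and DESeq2 and limma-voom called 0 in each list. Median log2 fold changes of these lists lay between -0.06 and 0.04. Over all tested genes the shares called were 4.59% in edgeR, 6.06% in DESeq2 and 4.74% in limma-voom. An edgeR unadjusted p under 0.05 was found for 15.4% of all tested genes. In lists this short, 0 calls is near those shares and says little about the list. Among 8 other tested snoRNA-host lncRNAs edgeR called 0, with unadjusted p under 0.05 for 2, Dancr and Snhg8, and among 29 protein-coding hosts 0, with 0 before adjustment; DESeq2 and limma-voom called 0 in both lists. Dancr was at 17.5 ± 0.864 CPM in knockout and 13.8 ± 0.962 CPM in wild-type libraries (edgeR adjusted p = 0.126), and Snhg8 at 54 ± 0.907 CPM in knockout and 46.6 ± 4.43 CPM in wild-type libraries (adjusted p = 0.26). Of 12 other tested nuclear or regulatory lncRNAs, Xist among them, 0 were called by edgeR (0 at an unadjusted p under 0.05), DESeq2 or limma-voom, and Rn7sk, the 7SK RNA of transcription elongation control, was at 8323 ± 633 CPM in knockout and 8964 ± 737 CPM in wild-type libraries.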

How the data were processed

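Raw counts, 1 whole number per gene and library, were deposited for 6 RNA libraries, per the file headers. Ribosomal RNA was depleted on magnetic beads before library preparation, per the labels' protocols. Tools listed in the submitters' processing notes, without role or order, include featureCounts 2.0.0, STAR 2.5.3a and limma, with the build mm10. No source used here gives the annotation release, the strand setting or the treatment of overlapping reads. The 9 ChIP or input samples were left out. Symbols were found for 54587 identifiers; positions, small RNA genes and sequences came from RefSeq (GRCm38.p6), by symbol.

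Genes were kept by filterByExpr (13077), scaled by TMM and tested without covariates by the quasi-likelihood method of edgeR 4.0.16 (R 4.3.3). A call is a Benjamini-Hochberg adjusted p under 0.05 across the whole table. SEs and 95% intervals came from the fold change, the F statistic and its degrees of freedom. The biological coefficient of variation was 0.109. A value of 0 reads allows up to 3 counts, or 0.141 to 0.212 CPM per library, for counting error only. Replicates all differed beyond sampling noise, with a chi-square of 6.53 to 17.5 per degree of freedom. On simulated counts for this comparison (12827 genes tested), 47.8% of genes changed 1.5-fold, 65.7% of those changed 2-fold and 95.5% of those changed 4-fold were recovered.

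The members and lists were chosen with earlier results of these data known. Named were all members, Msl2 and Blnk, protein-coding genes overlapping a member or within 5 kb, small RNA rows, up to 3 called genes per list and direction, and the 3 genes most like Malat1, Gas5 and Mir17hg; Xist, Firre, Dleu2, Rn7sk, Myc, Bcl2l11, Dancr and Snhg8 were named from the lists after their values were seen. Some genes under this rule are not reported here. Alternatives were RLE scaling, library totals, no low-count filter, a stricter filter (mean log2 CPM of 2 or more), limma-voom (limma 3.58.1), DESeq2 1.42.0, blocking on the replicate number, and omitting each library in turn or both numbered 2. Omitting both numbered 3 was an alternative chosen after seeing the data.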

Additional observations from a re-analysis of the deposited data

How the results depend on the processing

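Of 15 alternatives, 2 called a member. Without a filter on low counts it was 1, Neat1, and with the replicate number as a block 1, Snhg5 (log2 fold change 0.249, edgeR adjusted p = 0.0486). In the fit without the filter, edgeR estimated an infinite prior weight for the common trend, so that single genes lost their own spread. Counts of genes higher in the knockout were 482 without the filter, 381 with the replicate block, 115 without both libraries numbered 3 and 138 (without wild-type replicate 1; 147 without knockout replicate 1) to 227 without each library in turn, against 235. Counts of genes lower were 721 without the filter, 231 with the filter at a mean log2 CPM of 2, 565 with the block, 224 without both libraries numbered 2, 170 without both numbered 3 and 242 (without wild-type replicate 1) to 316 without each library in turn, against 365.

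Several log2 fold changes near 0 turned sign, none of them called. Malat1 was at 0.00659 with library totals, 0.0192 in limma-voom, 0.0188 with the replicate block, 0.0584 without both libraries numbered 2 and -0.20 to 0.14 without each library in turn. Mir17hg was at 0.00189 with RLE scaling, 0.0185 with library totals, 0.00148 with the stricter filter, 0.00172 in DESeq2 and -0.0731 to 0.124 without each library. Kcnq1ot1 was at -0.07 without both libraries numbered 2, -0.0204 without both numbered 3 and -0.23 to 0.26 without each library, and Snhg6 at -0.00171 to 0.081 without each library. Of the neighbours, Mcmdc2 was at -0.0875 and Phactr4 at -0.042 without both libraries numbered 2, and without each library in turn Mcmdc2 ran from -0.0502 to 0.149, Phactr4 from -0.00035 to 0.143 and Zbtb37 from -0.311 to 0.0513. The causes were not tested.

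Libraries of the same number deviated from their group means together for numbers 2 (r = 0.212) and 3 (0.403) but not for number 1 (0.0294). These r were taken across genes, which are not independent replicates. Knockout replicate 2 correlated more with wild-type replicate 1 (0.272) than with its own number. The numbers were therefore not taken to pair the samples, although the biological coefficient of variation was 0.0785 with the block, against 0.109 without it. The 95% intervals of the fold, up to 2.01 for Neat1 and 1.63 for Kcnq1ot1, limit what these libraries can show.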
